A study of Mus musculus with 12 samples.

Results

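The long noncoding RNAs Malat1, Neat1, Gas5, Snhg1, Snhg12, Dleu2, Mir155hg, Mir17hg and Kcnq1ot1 were followed in mouse OT-1 CD8+ T cells. They were taken by symbol, through gene identifiers of the GENCODE M21 annotation, and each of the 9 matched 1 row among the 55487 identifiers of either count table. In OT-1 transgenic mice, most CD8 T cells bear 1 T cell receptor, which recognises a peptide of ovalbumin. Total RNA depleted of ribosomal RNA was sequenced in 12 samples, in 4 groups of 3. The Female and Male groups were splenic cells of either sex, stimulated for 3 days with beads against CD3 and CD28 and with recombinant IL2. The WT and KD groups were male cells prepared apart from these, which were electroporated and then kept in culture for 3 days. The KD cells had been given Cas9 and a guide RNA that targets Kdm5d, a histone demethylase gene of the Y chromosome, and the WT cells only the guide RNA. No group received Cas9 without that guide, so Cas9 and reduced Kdm5d cannot be told apart in KD. All groups share the OT-1 receptor. The age of the mice, and whether the samples of a group came from separate mice or cultures, are not given in the sources used here, so p-values measure only the spread between these samples.

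Long noncoding RNAs act as RNA and are not translated into long proteins. Malat1 is a nuclear RNA found in speckles, the bodies that hold splicing factors, and Neat1 is the scaffold of a neighbouring body, the paraspeckle. Gas5, Snhg1 and Snhg12 are hosts: their introns carry small nucleolar RNAs (snoRNAs), which guide chemical modification of ribosomal and other RNAs, and their spliced exons are kept low by nonsense-mediated decay. Mir155hg, Mir17hg and Dleu2 are precursors of microRNAs, short RNAs that repress messenger RNAs through a seed at their start. In activated T cells miR-155 and the miR-17-92 cluster are known to favour proliferation and effector function, and miR-15a and miR-16-1 to restrain the cell cycle. Kcnq1ot1 is transcribed antisense to Kcnq1 from the paternal chromosome and silences neighbouring genes in some tissues.

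The products of the 3 microRNA hosts are shown first, because they define what each host can make. Mir17hg on chromosome 14 holds 6 hairpins with 11 mature sequences in RefSeq (GRCm38.p6), Dleu2 holds 2 hairpins with 4, and Mir155hg holds 1 hairpin with 2. The arm generally known as the more abundant one of each hairpin is printed 5′ to 3′ with the seed, bases 2 to 8, in capitals. In order along Mir17hg, then Dleu2, then Mir155hg, they are:
mmu-miR-17-5p: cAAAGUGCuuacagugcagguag
mmu-miR-18a-5p: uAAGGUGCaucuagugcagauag
mmu-miR-19a-3p: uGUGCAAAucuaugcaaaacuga
mmu-miR-20a-5p: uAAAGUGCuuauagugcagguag
mmu-miR-19b-3p: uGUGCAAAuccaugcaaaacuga
mmu-miR-92a-3p: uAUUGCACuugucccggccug
mmu-miR-15a-5p: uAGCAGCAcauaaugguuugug
mmu-miR-16-5p: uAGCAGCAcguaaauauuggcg
mmu-miR-155-5p: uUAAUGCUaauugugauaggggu
The seeds form shared groups. The arms miR-17-5p and miR-20a-5p had the same seed, as had miR-19a-3p and miR-19b-3p within the same host, and miR-15a-5p and miR-16-5p within Dleu2. The seeds of miR-18a-5p, miR-92a-3p and miR-155-5p each occurred once among the 17 mature sequences of the 3 hosts.

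The starts of the 3 snoRNA hosts are shown because transcripts of this class often begin with a pyrimidine tract, as messenger RNAs of ribosomal proteins do. Each stretch runs from 30 bases before the RefSeq start (GRCm38.p6) and is 80 bases long, on the plus strand: chr1:161035136-161035215 for Gas5, chr19:8723457-8723536 for Snhg1 and chr4:132308648-132308727 for Snhg12. Capitals mark a run of at least 6 pyrimidines that begins with C within 10 bases of the start.
Gas5: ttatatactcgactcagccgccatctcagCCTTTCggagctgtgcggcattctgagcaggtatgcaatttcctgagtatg
Snhg12: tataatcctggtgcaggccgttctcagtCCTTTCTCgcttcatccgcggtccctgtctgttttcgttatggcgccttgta
Snhg1: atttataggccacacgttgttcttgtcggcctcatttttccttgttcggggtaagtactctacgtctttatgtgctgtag
Gas5 and Snhg12 held such a run, of 6 and 8 bases, and the stretch of Snhg1 did not by this definition. RefSeq gives Gas5 a second start, at 161034601, which had no such run, and the stretch printed is that of the start at 161035166, chosen because it held one. A run of this kind was present in 19.2% of all 32851 promoter windows of the table. Counted per gene, where any of its starts may hold the run, it was present in 21.9% of 27025 genes. Among other noncoding snoRNA hosts it was present in 5 of 13 (38.5%). Its presence is a description only. The E-box CACGTG, read on both strands in windows of 300 bases, was found in none of the 3 hosts and in 7.15% of all windows. For Mir155hg and Mir17hg the RefSeq start lay 9856 and 1511 bases downstream of the GENCODE gene start, so no promoter is described for them.

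Counts per 1000000 counts of a library (CPM, on library sizes scaled by TMM) gave the level of each gene across samples, and CPM per kb of annotated exon allowed comparison between genes. Malat1 stood first of the 9 in every group by either measure, and first by mean count among the 9911 genes of long noncoding biotypes in each table. Its mean share of the library was 0.26% for Female, 0.243% for Male, 0.243% for WT and 0.291% for KD, and between 74.9% and 78.9% of the counts of the 9 genes together. The Female order per kb was Malat1 at 373, Snhg1 at 75.0, Gas5 at 41.8, Snhg12 at 27.6, Neat1 at 10.5, Dleu2 at 6.93, Mir17hg at 5.90, Mir155hg at 1.46 and Kcnq1ot1 at 1.02 CPM per kb, and no neighbours in that order overlapped between samples. In Male, Gas5 at 45.6 CPM per kb stood above Snhg1 at 34.6, and Dleu2 at 9.98 stood above Neat1 at 9.28. The last places, Mir155hg at 1.59 and Kcnq1ot1 at 1.54, overlapped. In WT the samples of Snhg12 and Mir17hg overlapped (10.6 and 10.2 CPM per kb), as did Kcnq1ot1 and Mir155hg (1.46 and 1.45). In KD those of Dleu2 and Neat1 overlapped (7.49 and 7.04). Exon lengths run from 1433 bases for Mir155hg to 93092 for the unspliced Kcnq1ot1, and include retained introns of the snoRNA hosts, so the per-kb levels are approximate. Mir155hg, with between 152 and 243 counts per library, was the least counted of the 9.

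**Figure D1:**
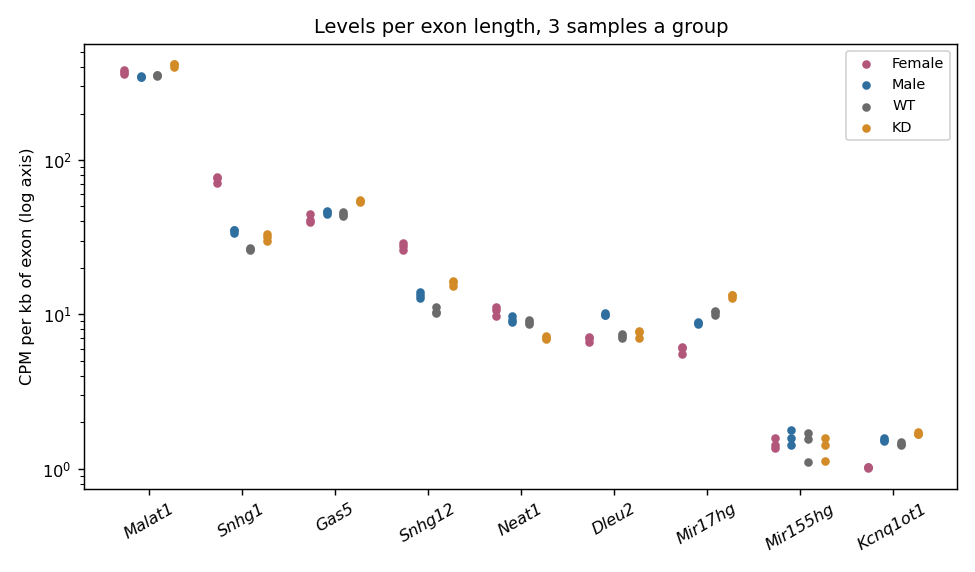
Level of each long noncoding RNA in CPM per kb of annotated exon (log axis), with 1 point per sample and colours for the 4 groups of 3. Malat1 lies far above the others in all groups, from a mean of 348 in Male to 412 in KD, and Snhg1 and Snhg12 show the widest gap between Female and the other groups.

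Male cells were set against Female cells first. The pair Snhg1 and Snhg12 was lower in Male by more than 1 log2 unit, Malat1 and Neat1 were slightly lower, Dleu2, Mir17hg and Kcnq1ot1 were higher by 0.53 to 0.60 log2 units, and Gas5 was slightly higher. Mir155hg did not pass the test. In all, 8 of the 9 genes were called at an adjusted p under 0.05, 4 higher and 4 lower, where 49.8% of all 20208 genes tested were called, 23.5% higher and 26.3% lower in Male. The share was 77.5% over the 8200 genes whose mean log2 CPM was 4 or more, and 80.4% over the 92 long noncoding genes at that level. Over all 2402 long noncoding genes tested it was 24.7%, with 15% higher and 9.7% lower in Male. The CPM of Female and Male samples did not overlap for 58.3% of all genes tested. Against those shares, 8 of 9 is not set apart. The median absolute log2 fold change of the 9 was 0.53, against 0.33 over all genes tested and 0.43 over called genes.

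Snhg1 (ENSMUSG00000108414, chromosome 19 at 8723475 to 8726443, plus strand) was at 229, 211 and 228 CPM in the Female samples and at 104, 100.1 and 104 CPM in the Male samples. The lowest Female sample lay far above the highest Male sample. The Male over Female ratio was 0.462, with a log2 fold change of -1.11 (SE 0.035, adjusted p 2.59e-09). Snhg12 (ENSMUSG00000086290, chromosome 4 at 132308623 to 132311024, plus strand) was at 69.9, 63.1 and 66.1 CPM in Female and at 32.0, 30.8 and 33.5 CPM in Male. These groups did not overlap either, and the log2 fold change was -1.05 (SE 0.045, adjusted p 2.48e-08). Gas5 (ENSMUSG00000053332, chromosome 1 at 161034422 to 161038539, plus strand) was at 167, 150 and 154 CPM in Female and at 173, 174 and 168 CPM in Male. Its groups were separated by less than 1 CPM, and the log2 fold change was 0.13 (SE 0.038, adjusted p 0.0175). That call did not hold without Female replicate 2 or 3 or Male replicate 1 or 2, where adjusted p ran from 0.0637 to 0.0747 and the log2 fold change from 0.09 to 0.12. In bulk samples, a change in the share of cells in a given state and a change in RNA per cell cannot be told apart.

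Among the nuclear RNAs, Malat1 (ENSMUSG00000092341, chromosome 19 at 5795690 to 5802672, minus strand) was at 2668, 2522 and 2615 CPM in Female and at 2415, 2410 and 2463 CPM in Male. The groups did not overlap, and the difference was small, with a log2 fold change of -0.10 (SE 0.019, adjusted p 0.00129). Neat1 (ENSMUSG00000092274, chromosome 19 at 5824708 to 5845478, minus strand) was at 231, 202 and 221 CPM in Female and at 186, 191 and 202 CPM in Male. The lowest Female and the highest Male sample met at 202 CPM, and the log2 fold change was -0.18 (SE 0.047, adjusted p 0.0101). Neat1 has a short and a long form that share their start, and a count per gene does not separate them. Kcnq1ot1 (ENSMUSG00000101609, chromosome 7 at 143203458 to 143296549, minus strand) was at 93.5, 95.8 and 94.9 CPM in Female and at 143, 141 and 148 CPM in Male. All Male samples lay above all Female samples, with a log2 fold change of 0.60 (SE 0.026, adjusted p 2.62e-08).

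Of the microRNA hosts, Mir17hg (ENSMUSG00000089726, chromosome 14 at 115042879 to 115046727, plus strand) was at 21.6, 19.6 and 21.4 CPM in Female and at 30.7, 30.9 and 31.3 CPM in Male. The ratio was 1.48, with a log2 fold change of 0.57 (SE 0.046, adjusted p 2.47e-06). Dleu2 (ENSMUSG00000097589, chromosome 14 at 61602839 to 61682373, minus strand) was at 79.9, 75.3 and 80.4 CPM in Female and at 112, 116 and 112 CPM in Male. Both hosts were higher in every Male sample than in any Female sample, and the log2 fold change of Dleu2 was 0.53 (SE 0.031, adjusted p 2.24e-07). Mir155hg (ENSMUSG00000097418, chromosome 16 at 84703167 to 84715245, plus strand) was at 2.05, 1.96 and 2.26 CPM in Female and at 2.26, 2.03 and 2.54 CPM in Male. Its samples overlapped, and with a log2 fold change of 0.12 (SE 0.15, adjusted p 0.534) no difference was detectable at this depth.

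**Figure D2:**
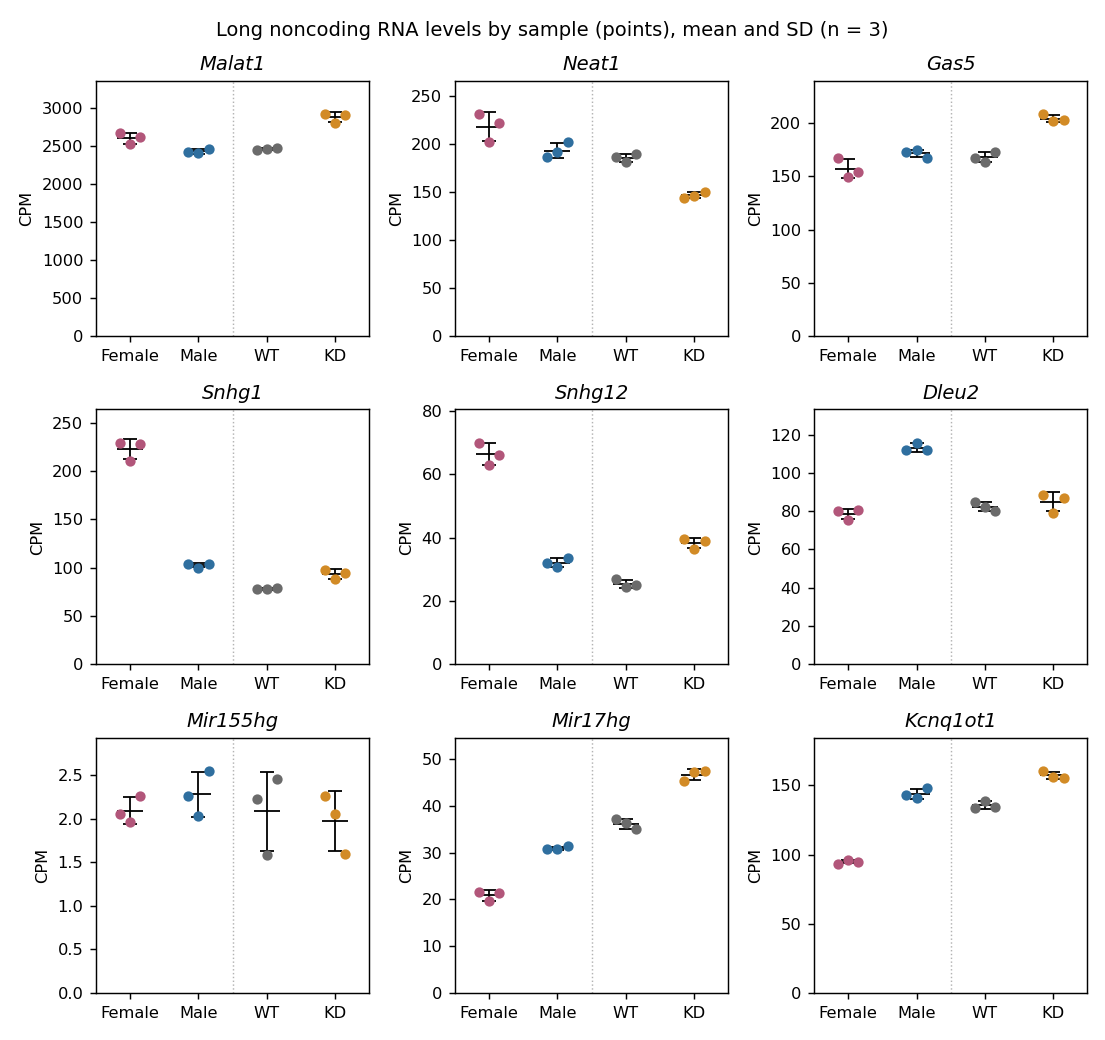
CPM of the 9 long noncoding RNAs in the 12 samples (points), with the mean and SD of each group of 3, and a dotted line between the separately prepared tables. Snhg1 and Snhg12 are highest in Female, Neat1 is lowest in KD at 144 to 150 CPM, and the groups of Mir155hg overlap.

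KD was then compared with WT. Kdm5d itself was at 50.9 ± 2.22 CPM in WT and 22 ± 0.76 CPM in KD (SD, n = 3), so the transcript was reduced and not lost. Of the 9 long noncoding RNAs, Snhg12, Mir17hg, Gas5, Snhg1, Malat1 and Kcnq1ot1 were higher in KD, Neat1 was lower, and Dleu2 and Mir155hg did not pass the test. These 7 calls, 6 higher and 1 lower, stand beside 35.1% of all 20413 genes tested, 16.8% higher and 18.4% lower in KD. Where the mean log2 CPM was 4 or more, 59.5% of 7975 genes were called, and 57.3% of the 82 long noncoding genes at that level. Over all 2426 long noncoding genes tested, the share called was 12.2%, made up of 4.7% higher and 7.46% lower in KD. The WT and KD samples did not overlap for 46.8% of all genes tested. Over the 9, the log2 fold changes had a median of 0.22, against 0.01 over all genes tested, and the median absolute value was 0.25 against 0.21. The median absolute value was 0.31 over called genes and 0.29 over long noncoding genes, both above that of the 9. With a minimum absolute log2 fold change of 0.5, 1 of the 9 (Snhg12) was called, and 9.95% of all genes tested. The same minimum gave 5 of the 9 and 21.4% of all genes in Male against Female.

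Neat1 was at 186, 181 and 189 CPM in WT and at 144, 145 and 150 CPM in KD. Every KD sample lay below every WT sample, with a ratio of 0.789 and a log2 fold change of -0.34 (SE 0.026, adjusted p 4.14e-06). Its neighbour Malat1, whose annotated gene lies on the same strand of chromosome 19, went the other way. It was at 2452, 2466 and 2473 CPM in WT and at 2917, 2800 and 2911 CPM in KD, without overlap, and its log2 fold change was 0.22 (SE 0.016, adjusted p 2.75e-06). Within a library, the ratio of Malat1 to Neat1 counts needs no scaling. It was 13.2, 13.6 and 13.1 in WT and 20.3, 19.3 and 19.4 in KD, where it was above WT in each sample (exact two-sided permutation p 0.1, the smallest that 3 against 3 allow). The pair was chosen after its values were seen. Malat1 was higher and Neat1 lower in every KD sample, so this separation and its p were fixed in advance and support nothing further. In Female and Male that ratio was 12.0 ± 0.49 and 12.6 ± 0.39 (SD, n = 3), with overlapping samples (exact permutation p 0.2).

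The snoRNA hosts were all higher in KD, by unequal amounts. Snhg12 was at 26.8, 24.4 and 25.1 CPM in WT and at 39.5, 36.4 and 39.0 CPM in KD. Its groups were well separated, with a ratio of 1.51 and a log2 fold change of 0.59 (SE 0.049, adjusted p 7.80e-06), the largest of the 9. Gas5 was at 168, 163 and 173 CPM in WT and at 208, 202 and 203 CPM in KD, a log2 fold change of 0.28 (SE 0.026, adjusted p 1.61e-05). Snhg1 was at 78.2, 77.6 and 79.6 CPM in WT and at 98.1, 88.4 and 94.1 CPM in KD, a log2 fold change of 0.25 (SE 0.038, adjusted p 0.000484). Neither gene had samples that overlapped between WT and KD.

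Mir17hg was at 37.1, 36.4 and 35.0 CPM in WT and at 45.3, 47.2 and 47.4 CPM in KD. The groups did not overlap, and the log2 fold change was 0.37 (SE 0.038, adjusted p 3.84e-05). Kcnq1ot1 was at 133, 139 and 135 CPM in WT and at 160, 156 and 155 CPM in KD, also without overlap, with a log2 fold change of 0.21 (SE 0.025, adjusted p 9.62e-05). Dleu2 was at 84.6, 82.2 and 80.1 CPM in WT and at 88.4, 79.2 and 87.0 CPM in KD. Its groups overlapped, and its log2 fold change was 0.04 (SE 0.043, adjusted p 0.488). Without KD replicate 2 the value was 0.09 with an adjusted p of 0.0497, so its place on either side of the threshold rests on that library. Mir155hg was at 2.22, 1.58 and 2.45 CPM in WT and at 2.26, 2.05 and 1.60 CPM in KD, where samples of the same group differed more than the group means (log2 fold change -0.08, SE 0.20, adjusted p 0.804).

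**Figure D3:**
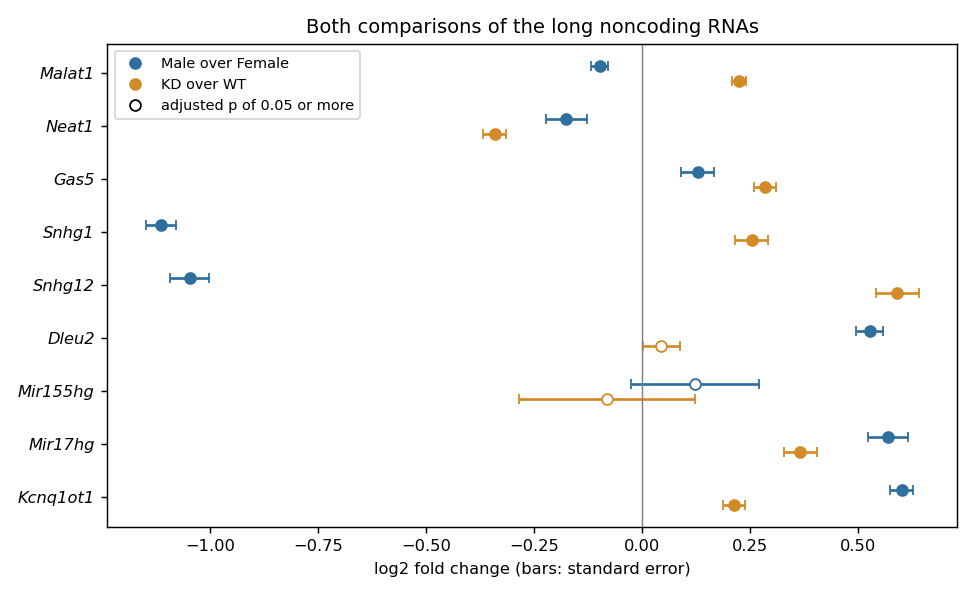
Log2 fold changes of the 9 long noncoding RNAs for Male over Female and KD over WT, with the standard error as bars and open symbols where the adjusted p was 0.05 or more. Snhg1 and Snhg12 lie near -1.1 and -1.0 for Male over Female and at 0.25 and 0.59 for KD over WT.

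Levels in the 4 groups can be set side by side, although the 2 tables are separate batches and no test was made across them. The mean of Snhg1 was 223 CPM for Female, 103 for Male, 78.5 for WT and 93.5 for KD. Snhg12 averaged 66.4, 32.1, 25.4 and 38.3 CPM in the same order. Both hosts were thus highest in Female, and the 3 groups of male cells lay nearer to each other than to Female. Mir17hg had another order, at 20.9, 30.96, 36.2 and 46.6 CPM. Dleu2, at 78.5, 113, 82.3 and 84.9 CPM, was highest in Male. Malat1 ranged only from 2429 CPM in Male to 2876 in KD. The spread between replicates was small for most of them, with a coefficient of variation (SD over mean) from 0.434% for Malat1 in WT to 21.7% for Mir155hg in WT.

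Because Snhg1 and Snhg12 moved together and Gas5 did not move with them between the sexes, ratios within libraries were taken, a choice made after their values were seen. The ratio of Snhg12 to Snhg1 counts was 0.305, 0.299 and 0.290 in Female and 0.307, 0.308 and 0.321 in Male. These ranges lay close together without overlap (exact permutation p 0.1). The ratio of Gas5 to Snhg1 counts was 0.728, 0.711 and 0.677 in Female and 1.66, 1.74 and 1.61 in Male, so that Gas5 passed from below to above Snhg1. In WT and KD the ratio of Gas5 to Snhg1 averaged 2.14 ± 0.033 and 2.19 ± 0.086 (SD, n = 3), with overlapping samples (exact permutation p 0.5). The ratio of Snhg12 to Snhg1 rose from 0.324 ± 0.017 in WT to 0.410 ± 0.0059 in KD, above WT in every sample (exact permutation p 0.1).

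**Figure D4:**
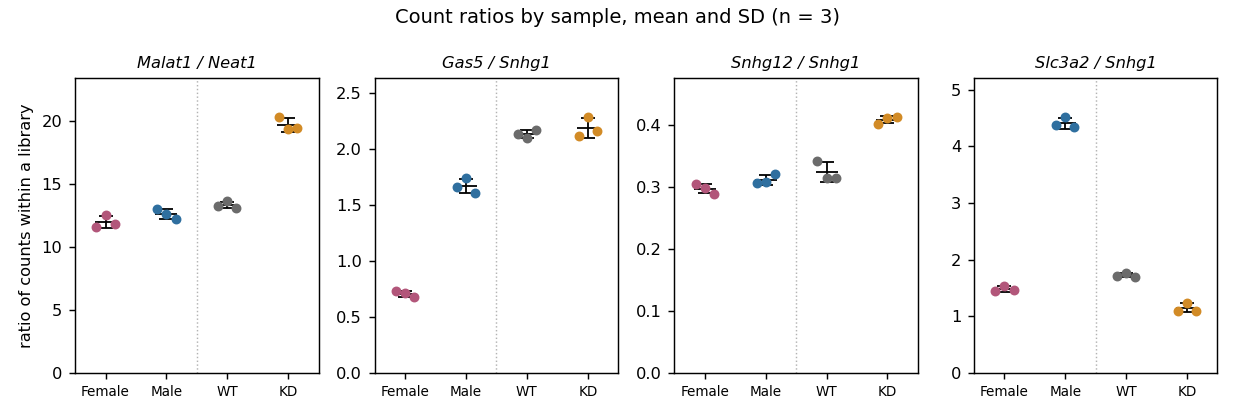
Ratios of counts within each library for 4 gene pairs, with points for samples and the mean and SD of each group of 3. Malat1 over Neat1 is highest in KD at 19.3 to 20.3, and Gas5 over Snhg1 is below 1 in Female only.

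The other noncoding snoRNA hosts were read from a list of 16 symbols, of which Snhg4 and Snhg7 were not matched. In Male against Female 7 of 11 tested were called, 5 lower and 2 higher, which is 63.6% against 49.8% of all genes, with a median log2 fold change of -0.06. Snhg5, host of U50 snoRNAs, was lower in Male, at 38.3 ± 1.44 against 82.5 ± 1.79 CPM (SD, n = 3), with a log2 fold change of -1.11 (adjusted p 2.20e-09), close to the values of Snhg1 and Snhg12. Snhg16, Zfas1 and Snhg15 were lower as well, with log2 fold changes of -0.90, -0.79 and -0.58 (adjusted p 1.45e-07, 6.56e-08 and 5.70e-06). Named after their values were seen, Epb41l4aos was the fifth lower gene (-0.55, adjusted p 1.10e-05), and Snhg20 and Snhg3 were higher (0.34 and 0.41, adjusted p 0.00432 and 0.0468). The call of Snhg3 was near the threshold. Only 1 higher gene of the list was called without a low-count filter, with limma-voom, at an adjusted p under 0.01 or without Female replicate 1. In KD against WT 4 of 12 tested were called, all 4 higher, which is 33.3% against 35.1% of all genes. These were Snhg5, Snhg15, Snhg8 and Snhg17, at 0.36, 0.37, 0.37 and 0.15 (adjusted p 2.91e-05, 0.000221, 0.00189 and 0.00866). The median of the 12 was 0.14, and none reached 0.5 with a call.

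**Figure D5:**
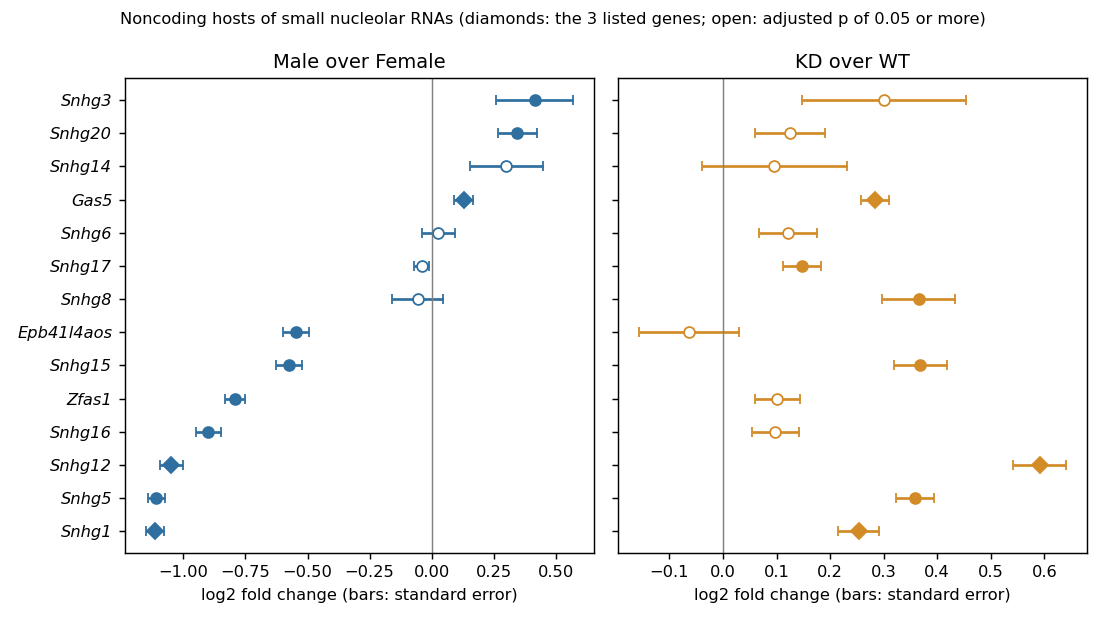
Log2 fold changes, with standard errors as bars, of the 14 noncoding snoRNA hosts tested in both comparisons, ordered by Male over Female. Diamonds mark Gas5, Snhg1 and Snhg12, and open symbols mark an adjusted p of 0.05 or more. Snhg1, Snhg5 and Snhg12 lie lowest in Male over Female, and all but Epb41l4aos lie above 0 in KD over WT, 7 of the 14 with a call.

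The proteins that bind snoRNAs were read from a further list. All 10 listed snoRNP proteins were called higher in Male, with a median log2 fold change of 0.48. Nop56, a core protein of box C/D particles, had a mean of 206 CPM in Male and of 116 in Female (log2 fold change 0.82, adjusted p 1.68e-09), Dkc1, the pseudouridine synthase of H/ACA particles, was at 0.71 (adjusted p 1.53e-08), Nhp2 at 0.56 (adjusted p 3.69e-07) and the methyltransferase Fbl at 0.50 (adjusted p 1.16e-06). In KD 9 of the 10 were called, each higher, with a median of 0.27, among them Naf1 at 0.39, Nhp2 at 0.32, Nop56 at 0.31 and Fbl at 0.30 (adjusted p 4.30e-05, 1.57e-05, 2.41e-06 and 1.37e-05). The shares called, 100% and 90%, stand beside 49.8% and 35.1% of all genes tested. Of genes with a mean log2 CPM of 4 or more, 77.5% and 59.5% were called.

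Factors of nonsense-mediated decay, the pathway that removes spliced host transcripts, were read next. In Male 13 of 14 were called (92.9%), 9 lower and 4 higher, with a median log2 fold change of -0.27, where 49.8% of all genes tested and 77.5% of those with a mean log2 CPM of 4 or more were called. Smg9 and Smg6 were at -0.65 and -0.64 (adjusted p 4.34e-08 and 1.64e-08), whereas Magoh, of the exon junction complex, was at 1.07 (adjusted p 5.04e-08). In KD 7 of 14 were called (50%), 5 lower and 2 higher, with a median of -0.01, beside 35.1% of all genes and 59.5% at that level. The 4 with the smallest p were Smg1 at -0.14, Upf1 at -0.14, Eif4a3 at 0.11 and Smg6 at -0.12 (adjusted p 0.000207, 0.00232, 0.0157 and 0.0211). That count fell to 4, 2 and 3 without WT replicates 1, 2 and 3 and to 4 and 3 without KD replicates 1 and 3, and to 4 with upper-quartile factors and with the replicate block.

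Proteins of the bodies in which Neat1 and Malat1 are found were read next. In Male against Female 49.8% of all genes tested and 77.5% of those with a mean log2 CPM of 4 or more were called, and in KD against WT 35.1% and 59.5%. Of 14 listed paraspeckle proteins, 12 were called in Male against Female, 9 higher and 3 lower (85.7%, median 0.23). Sfpq was at 0.50 and Tardbp at 0.42, both higher in Male, and Cpsf7 was at -0.33 (adjusted p 8.56e-09, 1.33e-07 and 2.95e-06). In KD 12 of the 14 were called, 7 higher and 5 lower, with a median of 0.01. Sfpq and Tardbp were at 0.25 and 0.14 and Dazap1 at -0.25 (adjusted p 4.51e-06, 0.000154 and 7.39e-05). Of 16 nuclear speckle and SR proteins, 12 were called in Male, 9 higher and 3 lower (75%, median 0.09), with the splicing factors Srsf1 at 0.72, Srsf2 at 0.59 and Srsf3 at -0.35 and the speckle protein Pnn at 0.39 (adjusted p 1.59e-09, 1.15e-08, 3.70e-07 and 1.83e-06). In KD 10 were called, 6 higher and 4 lower (62.5%, median 0.00). The shares of the speckle list, 75% and 62.5%, are near those of genes at that level. Srsf7 was at 0.41, Srsf3 at 0.28, Srsf10 at 0.25 and Srsf1 at 0.16 (adjusted p 2.68e-07, 3.60e-06, 3.07e-05 and 3.21e-05).

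The hosts' own microRNA and snoRNA rows were read to see whether the tables measure the products. Of 9 microRNA genes inside Mir17hg, Dleu2 and Mir155hg, 7 were listed at exactly 1 in each of the 12 samples, including all 6 hairpins of the miR-17-92 cluster and Mir155. In Dleu2, Mir15a had between 2 and 9 counts and Mir16-1 between 1 and 5. Of 23 snoRNA genes inside Gas5, Snhg1 and Snhg12, 11 were at 1 in every sample and 18 never exceeded 3. The same constant value of 1 was found for 256 identifiers of the tables, 151 of them microRNAs and 78 snoRNAs, so these rows carry no level. The seed groups above therefore have no measured abundance here. Snord22, inside Snhg1, was the snoRNA row with the most counts, at 58, 76 and 64 in Female and 46, 37 and 38 in Male. It was lower in each Male sample (log2 fold change -0.70, adjusted p 0.0337), but the host and the snoRNA overlap on the same strand, and their reads cannot be told apart. In WT and KD it held between 11 and 23 counts (log2 fold change -0.20, adjusted p 0.805).

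Of the machinery that cuts and loads microRNAs, 12 of 16 tested genes were called in Male, 9 lower and 3 higher (75%, median -0.17). That share is near the 77.5% of genes with a mean log2 CPM of 4 or more, and above the 49.8% of all genes. The silencing scaffolds Tnrc6b and Tnrc6c were at -0.59 and -0.39 and the Argonautes Ago3 and Ago1 at -0.50 and -0.35 (adjusted p 2.96e-06, 8.44e-07, 4.32e-06 and 8.43e-07). In KD 9 of 17 were called, 7 higher and 2 lower (52.9%, median 0.09), between the 35.1% of all genes and the 59.5% at that level. Dgcr8, the partner of Drosha in cutting hairpins from hosts such as Mir17hg, rose from 81.2 ± 2.13 in WT to 123 ± 0.46 CPM in KD (SD, n = 3; log2 fold change 0.60, adjusted p 1.20e-07), and Ago2 was at -0.45 (adjusted p 2.32e-07). Prkra and Tarbp2, partners of Dicer, were at 0.55 and 0.24 (adjusted p 0.00188 and 0.000471).

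Genes reported as targets of these microRNAs were taken from hand-written lists and were measured as RNA only. Called shares are to be read against 49.8% of all genes and 77.5% of those with a mean log2 CPM of 4 or more in Male, and against 35.1% and 59.5% in KD. For miR-17-92, whose host was higher in Male and in KD, 11 of 15 were called in Male (73.3%), 9 lower and 2 higher, with a median log2 fold change of -0.20. The phosphatase Phlpp1 was at -1.07, the pro-apoptotic Bcl2l11 (BIM) at -0.74, E2f2 at -0.59 and the deubiquitinase Cyld at -0.50 (adjusted p 1.02e-09, 8.55e-10, 1.63e-08 and 2.91e-08). In KD 11 of 15 were called (73.3%), 7 higher and 4 lower, with a median of 0.00 when rounded, and Phlpp1 was there at 0.46 (adjusted p 1.30e-05). The cell cycle inhibitor Cdkn1a was at 0.46, Nfatc2ip at 0.37 and the TGF-beta receptor Tgfbr2 at -0.52 (adjusted p 2.23e-06, 6.81e-05 and 3.69e-08). For the miR-15a and miR-16-1 list, 11 of 14 were called in Male, 7 lower and 4 higher (78.6%, median -0.08), with Ccnb1 at 0.87, Cd28 at -0.80, Ccnd3 at 0.61 and Bcl2 at -0.31 (adjusted p 5.81e-09, 6.59e-10, 4.28e-09 and 6.79e-08). In KD 8 of 14 were called, 4 in each direction (57.1%, median -0.02), where Wee1 was at 0.40, Mcl1 at -0.21, Cdc25a at 0.19 and Ccnd2 at -0.12 (adjusted p 8.07e-06, 0.000182, 0.000239 and 0.000145).

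The miR-155 list is set apart because its host did not pass the test in either comparison. In Male 10 of 15 were called, 6 higher and 4 lower (66.7%, median -0.03), with the phosphatase Inpp5d (SHIP1) at 0.71, Jarid2 at 0.54, Socs1 at 0.53 and Tab2 at -0.78 (adjusted p 4.28e-09, 5.16e-08, 4.14e-07 and 1.02e-09). In KD 10 of 15 were called (66.7%), all 10 lower, with a median of -0.26, where 35.1% of all genes tested were called, 18.4% lower, and 59.5% of those with a mean log2 CPM of 4 or more. In Male the shares over the same sets of genes were 49.8% and 77.5%. The factors Fosl2 and Jarid2 were at -0.84 and -0.78, the interferon gamma receptor Ifngr1 at -0.64 and Inpp5d at -0.47 (adjusted p 3.83e-09, 1.09e-08, 6.10e-09 and 1.75e-07). Many of these genes have other regulators, and the part of any microRNA in their values was not tested.

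Coding genes next to the 9 were compared with them. Slc3a2, which encodes the CD98 heavy chain of amino acid transporters, lies head to head with Snhg1 on the opposite strand, 106 bases away. Its mean was 453 ± 2.12 CPM in Male and 329 ± 4.00 CPM in Female (SD, n = 3), a log2 fold change of 0.46 (adjusted p 1.09e-08), and at -0.34 in KD over WT (adjusted p 5.72e-06), so that it went against Snhg1 in both comparisons. The ratio of Slc3a2 to Snhg1 counts was 1.48 ± 0.057 for Female, 4.41 ± 0.099 for Male, 1.73 ± 0.039 for WT and 1.14 ± 0.079 for KD (SD, n = 3), without overlap in either table (exact permutation p 0.1 in each). This pair was chosen after its values were seen. Both genes separated the groups in opposite directions, so the ratio had to separate them too and that p supports nothing further. Frmd8, 4224 bases from Neat1 on the same strand, was at -0.73 in Male (adjusted p 2.01e-09) and at -0.01 in KD (adjusted p 0.784). Zbtb37 overlaps the start of Gas5 on the opposite strand. It was at 0.06 in Male (adjusted p 0.354) and at 0.29 in KD (adjusted p 0.000164), where Gas5 was at 0.28. Trim13, a ubiquitin ligase gene that overlaps the end of Dleu2 on the opposite strand, was at -0.09 in Male (adjusted p 0.459) and was lower in KD, at 10.1 ± 0.73 against 15.2 ± 0.88 CPM (log2 fold change -0.59, adjusted p 0.000110).

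Other nearest coding genes had these values. Trnau1ap, 739 bases from Snhg12, was at 0.28 in Male (adjusted p 0.00340) and at 0.10 in KD (adjusted p 0.233). Mrpl39, next to Mir155hg, was at 0.02 and -0.11 (adjusted p 0.777 and 0.164). Kcnrg, which lies inside Dleu2 on the opposite strand, was at 0.40 and -0.30 (adjusted p 0.120 and 0.245). Gpc5, 45488 bases from Mir17hg, had at most 34 counts in a library. Over the whole list of 37 neighbours, 20 of 33 tested were called in Male (60.6%, 9 higher and 11 lower) and 12 of 32 in KD (37.5%, 5 higher and 7 lower), with medians of -0.01 and -0.03. Over all genes tested, 49.8% and 35.1% were called. The syntaxin gene Stx5a of that list was also lower in Male, at -0.64 (adjusted p 7.58e-08).

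Kcnq1 contains Kcnq1ot1 on the opposite strand, so the pair also bears on strand. Kcnq1 had 0 to 3 counts per library in Female and Male and 0 in WT and KD, while Kcnq1ot1 had between 7923 and 16961. Of 13 listed genes of the imprinted domain, 9 were tested. In Male 4 were called, 3 lower and 1 higher (44.4% against 49.8% of all genes, median -0.16): the tetraspanins Cd81 at -2.11 and Tspan32 at -1.79, Tssc4 at -0.16 and the histone chaperone Nap1l4 at 0.20 (adjusted p 9.72e-08, 9.16e-09, 0.0245 and 0.000184). In KD 5 were called, 2 higher and 3 lower (55.6% against 35.1% of all genes, median 0.12). Cd81 was at 1.66, from 0.675 CPM in WT to 2.13 in KD, Tspan32 at -1.10, Tnfrsf23 at -0.44 and Osbpl5 at -0.22 (adjusted p 0.000278, 4.12e-05, 0.00580 and 0.000443). Kcnq1ot1 was higher in Male and in KD. Tspan32 was lower in both, and Cd81 was lower in Male and higher in KD. The part of Kcnq1ot1 in the values of the domain was not tested.

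Facts of the series that touch these values are as follows. Total counts per sample were between 78748647 and 110803318. Summed levels of 9 CD8 T cell markers were between 3110 and 3250 CPM in Female and Male and between 3270 and 3640 in WT and KD. Of the 9, 6 were called in Male (1 higher, 5 lower) and 5 in KD (all lower). Over all genes tested, 49.8% were called in Male and 35.1% in KD. Where the mean log2 CPM was 4 or more, these shares were 77.5% and 59.5%, so the counts of CD8 markers are not set apart. Cd4 was under 1 CPM in each group, as were 5 of 6 B cell markers (the exception was Cd79b). At least 8 of 9 myeloid and dendritic markers were under 1 CPM as well, and the exception in WT and KD was Itgax. The myeloid and dendritic sum was between 3.98 and 4.99 CPM in WT and between 1.49 and 2.13 in KD. The 5 NK-type markers, which include Nkg7 and Eomes that CD8 effector cells also express, summed to 261 to 270 CPM for Female, 453 to 468 for Male, 723 to 742 for WT and 623 to 649 for KD. Ncr1, which defines NK cells, was under 1 CPM in every group. The 4 stromal and endothelial markers summed to 43.3 to 45.3, 38.6 to 40.1, 35.4 to 37.4 and 29.0 to 31.7 CPM in the same order, with Col3a1 and Cdh5 at 0 counts. Col1a1 was under 1 CPM in every group, so Pecam1 made up almost all of the stromal and endothelial sum. The 8 erythroid and platelet markers summed to 2.95 to 3.29 CPM in Female and 0.61 to 1.39 in Male. In WT and KD that sum was 0.477 to 0.649 and 0.87 to 1.06 CPM. The 4 globin genes were at 0 counts. Of the 8, only Ppbp was not under 1 CPM in Female, and it had 0 counts in Male. The part of these shifts in the long noncoding RNA values was not tested. Between 2.2% (Neat1) and 13.9% (Snhg12) of the 31-base subsequences of a gene's annotated transcripts also occur in another gene, with Snhg1 at 12.9%. For Snhg12 the snoRNAs it contains lead these matches. For Snhg1 its snoRNA Snord22 leads them, and Mga, which is not among the snoRNAs inside Snhg1, comes next.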

How the data were processed

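Whole-number counts for each gene, not normalized, were used as deposited by the authors in 2 tables, of which 1 holds the Female and Male samples and 1 the WT and KD samples. Per the submitters' processing notes, bcl2fastq 2.20.0, HISAT2, StringTie and DESeq2 were used with build mm10; their roles, the annotation and the use of strand are not given in the sources used here. Libraries were stranded and depleted of ribosomal RNA, per the labels' protocols. Groups come from the sample titles. Identifiers were matched to GENCODE M21 (GRCm38): 55227 of 55487 matched. The unmatched 260 held 2.89% to 3.45% of counts and stayed in the fits. Mature microRNA sequences and start sites are from RefSeq (GRCm38.p6).

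Each table was fitted alone with edgeR 4.0.16 (R 4.3.3): filterByExpr, TMM, quasi-likelihood test, Benjamini-Hochberg adjustment over all genes tested, calls at an adjusted p under 0.05. The standard error is the absolute log2 fold change over the square root of F. Tested on simulated data with 200 genes changed by 1 log2 unit, 63.5% were recovered for Male against Female (20208 genes) and 64% for KD against WT (20413 genes), and 9.93% and 8.57% of the genes called were unchanged ones, above the nominal 5%. Far more genes were called in the data, 49.8% and 35.1% of those tested. The recovered and false shares of the simulation therefore do not carry over to the calls reported here. Total counts were 78748647 to 110803318 per sample. At 100 to 300 counts the median variance of replicates over their mean was 2.84 to 3.18, where Poisson counting alone gives 1.

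The genes, lists and tests were chosen with earlier results of these data known. Named genes were the 9, up to 4 genes of smallest p per list and comparison, the nearest coding genes, snoRNA and microRNA rows of most counts, and 2 genes most like each of the 9; a few genes that this rule names are not reported here. Ratios between genes were chosen after values were seen. Alternatives covered normalization, filters, DESeq2 1.42.0, limma-voom (limma 3.58.1), thresholds, depth, library size, a replicate block and leaving out each replicate.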

Additional observations from a re-analysis of the deposited data

How the results depend on the processing

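The results were recomputed under 12 settings per comparison and in 6 fits that each left out 1 replicate. Under the other normalizations (DESeq2 size factors, upper-quartile factors, library sizes without these genes), DESeq2, limma-voom, thinning and counts divided by 4, the 9 genes kept 8 calls (4 higher, 4 lower) for Male against Female and 7 (6 higher, 1 lower) for KD against WT, with no change of sign. The median of all genes moved by less than 0.1 log2 units under each scaling; upper-quartile factors changed the KD split of all calls to 4002 higher and 3279 lower, from 3424 and 3747. Without a low-count filter 7 genes were called in Male (Gas5 not, adjusted p 0.0694), and at an adjusted p under 0.01 there were 6, without Gas5 and Neat1. Without 1 replicate, 7 to 8 genes were called in either comparison, 9190 to 9399 of all genes in Male and 6073 to 6685 in KD, and 2 to 5 nonsense-mediated decay factors in KD.

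A minimum absolute log2 fold change of 0.5, which by construction calls fewer genes, left 4321 genes and 5 of the 9 in Male and 2031 genes and 1 of the 9 in KD. In Male it left 5 other snoRNA hosts, all of them lower. It also left there 4 nonsense-mediated decay factors, 3 snoRNP proteins, 1 paraspeckle protein, 2 speckle proteins, 2 genes of the microRNA machinery, 5, 5 and 3 targets of miR-155, miR-17-92 and miR-15a/16-1, 7 neighbours and 2 genes of the Kcnq1ot1 domain. In KD it left 0 other snoRNA hosts, 0 nonsense-mediated decay factors, 0 snoRNP, 0 paraspeckle and 0 speckle proteins, 2 genes of the microRNA machinery, 4, 2 and 0 targets, 4 neighbours and 2 genes of the domain. The nonsense-mediated decay factors called in KD were 7 at first, 4 with upper-quartile factors, 2 at an adjusted p under 0.01 and 4 with the replicate block.

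Titles number the replicates 1 to 3 in each group, and nothing states that equal numbers share a mouse or culture. Same-numbered samples of KD and WT correlated in their deviations at 0.0334, -0.116 and 0.0363, and those of Male and Female at -0.00766, -0.101 and 0.0981, so the numbers were not taken as pairs. With the replicate block 9740 and 6688 genes and 8 and 7 of the 9 were called. Mir155hg, not called in any fit, changed sign in KD to 0.047 without WT replicate 3 and to 0.049 without KD replicate 3, in a range that began at -0.25 without WT replicate 2; the cause was not tested. Its counts of 152 to 243 per library limit what can be seen.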

Other observations

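Genes with the most similar profile were sought among 9284 genes whose mean log2 CPM was 3 or more in both tables, by the smaller of their 2 correlations with a long noncoding RNA over the 6 samples of each table. With 6 samples in 2 groups, such values mostly reflect the difference between the groups where there is one. For Dleu2 in KD against WT and Mir155hg in both comparisons no difference was called, so spread within groups weighs more. The samples share libraries, and the best of many genes was taken, so all these correlations are given as a description. For Malat1 the closest were Eef1b2, a translation elongation factor (smaller r 0.99), and the ribosomal protein gene Rps10 (0.977). For Snhg12 they were Slc44a1, a choline transporter, and Sgpp1 (both 0.995), and Slc44a1 had log2 fold changes of -1.31 in Male over Female and 1.02 in KD over WT. For Snhg1 they were Nanos1 (0.991) and the histone methyltransferase Nsd2 (0.989).

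For Mir17hg the closest were Umps, an enzyme of pyrimidine synthesis (0.993), and Eif1ad (0.992), and for Kcnq1ot1 Pfas, an enzyme of purine synthesis (0.992), and the interferon-induced Ifi47 (0.989). Umps and Pfas were higher in Male, at 0.47 and 0.39, and in KD, at 0.24 and 0.46, on the log2 scale. Gas5 was closest to Aoc2 (0.993) and Ubfd1 (0.969), Neat1 to Fyco1 (0.955) and the m6A writer component Wtap (0.938), and Dleu2 to Cebpz (0.96) and Gm49336 (0.956). For Mir155hg no gene passed 0.82, with Gm16867 at 0.817 and Pak4 at 0.777.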
